A study of Homo sapiens with 6 samples.

Results

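Kinesins are motor proteins that walk along microtubules or take them apart, using the energy of ATP. One set of them builds and shortens the mitotic spindle, moves chromosomes and drives cytokinesis, and its genes are transcribed mainly in G2 and mitosis. Another set carries vesicles, organelles and RNA through the cytoplasm, and a few serve cilia or signalling. In germinal centre B cells and the lymphomas derived from them, rapid division makes the mitotic set prominent.

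The kinesin genes were taken as the rows of the read count table whose symbol is KIF, or KIFC, followed by a digit. This gave 42 of 23250 rows. They were placed by textbook role into 14 mitotic, 17 transport and 11 other kinesins, the last being ciliary, signalling or mixed members. RNA sequencing gave their transcript counts in OCI-LY1 cells, a long-established line of DLBCL (diffuse large B cell lymphoma), a tumour of mature B cells. In both groups the cells were transfected with siRNA against BCL6, a transcriptional repressor without which germinal centres do not form. In one group wild-type BCL6 was then expressed ectopically, here called the wild-type rescue, and in the other a BCL6 mutated in its second repression domain, here called the RD2-mutant rescue. Each group had 3 libraries, all from 1 cell line, and no library lacked a rescue. Separate cultures are not named in the labels, so the spread that p-values rest on is that of these 6 libraries and may be technical.

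Libraries held 26298456 to 27574867 counts. A floor of 3 counts was worth 0.109 to 0.115 CPM (a gene's count relative to the TMM-scaled library total), and this covers counting error only. BCL6 transcript was present in every library, at 16998 to 19069 counts per wild-type library and 13726 to 14166 per mutant library, without separation of the cell's own from the introduced transcript. It was lower in the mutant rescue (log2 -0.38, SE 0.032; edgeR, adjusted p = 7.90e-10), with no overlap, and the part of this difference in the kinesin results was not tested. All 7 B cell markers checked were detected in every library. The 10 T cell and myeloid markers summed to 106 to 126 counts per library, with CD3E and CD2 at 0 throughout. Most of this was CD247, at 84 to 117 counts per library, which was not called. CD14 (0 to 14 counts) and LYZ (0 to 6 counts) were too low to be tested. In CPM both were higher in every mutant library than in any wild-type library. The second mutant library stood apart from the other two mutant libraries (chi-square per degree of freedom 5.47 and 4.36, against 1.75 between the other two), and it had the highest level of its group for 9 of 13 tested mitotic kinesins. Of all 12406 genes tested, 70.1% were called in either direction, 35.4% higher and 34.8% lower in the mutant rescue, at a Benjamini-Hochberg adjusted p under 0.05 (edgeR quasi-likelihood test). A change of at least 1.2-fold was called higher for 25.4% and lower for 23.7%. The groups of libraries did not overlap for 72.4% of genes, with the mutant above for 36.8% and below for 35.6%. Counts of kinesins are to be read against these shares. Called, rose and fell below all refer to this test, and a log2 fold change is mutant minus wild-type rescue.

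Promoter sequences are shown first for 5 mitotic kinesins, a class in which certain short sequence elements were frequent near transcription starts. Genes transcribed in G2 and mitosis often carry a cell cycle gene homology region, the letters TTTGAA or TTTAAA, together with CCAAT boxes bound by the factor NF-Y. The stretches run from 110 bases before the start to the last base before it, 5′ to 3′ on the gene's strand, from RefSeq on GRCh38.p14, which is not the build of the counts. Capitals mark these elements on either strand. They come from KIF20A (chr5:138179002-138179111, plus strand), KIF4A (chrX:70289994-70290103, plus strand), KIF18A (chr11:28108157-28108266, minus strand), KIF23 (chr15:69414239-69414348, plus strand) and KIF11 (chr10:92593020-92593129, plus strand).
KIF20A: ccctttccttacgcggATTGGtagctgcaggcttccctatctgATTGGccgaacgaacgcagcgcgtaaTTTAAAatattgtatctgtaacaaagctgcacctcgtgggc
KIF4A: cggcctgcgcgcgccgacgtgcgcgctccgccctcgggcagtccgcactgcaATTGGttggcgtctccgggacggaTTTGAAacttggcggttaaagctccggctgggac
KIF18A: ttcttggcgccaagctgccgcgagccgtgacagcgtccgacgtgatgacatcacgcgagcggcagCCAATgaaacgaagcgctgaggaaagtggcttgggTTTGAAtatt
KIF23: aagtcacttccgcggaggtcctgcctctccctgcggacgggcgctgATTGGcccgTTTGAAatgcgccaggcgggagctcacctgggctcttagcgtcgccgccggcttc
KIF11: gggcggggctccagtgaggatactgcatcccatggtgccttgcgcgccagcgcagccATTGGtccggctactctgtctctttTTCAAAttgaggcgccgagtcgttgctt

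Each of the 5 stretches holds 1 TTTGAA or TTTAAA, with CCAAT upstream of it. These are the mitotic kinesins that hold both elements within these bounds, so this was fixed by the choice of genes. Searched on both strands from 250 bases before to 50 bases after the start, 12 of 14 mitotic kinesin genes held TTTGAA or TTTAAA in at least 1 listed promoter, against 2 of 12 transport and 0 of 8 other kinesin genes that have a listed promoter, and 27.9% of all 27305 genes with a listed RefSeq promoter. CCAAT was found for 11 of 14 mitotic, 4 of 12 transport and 3 of 8 other kinesin genes, against 39.7% of all genes. Both elements were present for 10 mitotic genes and for 1 transport gene, KIF5B, against 11.2% of all genes. The letters TTCCNNGAA, a core of the site bound by BCL6, were found for 2 mitotic genes (KIF20A and KIF2C) and 2 transport genes (KIF1A and KIF5C), against 5.5% of all genes. A match describes letters in the window and not a bound site. As the values below show, genes that carry both elements covered the whole range of change within the class, from KIF11 to KIF20A. Any part of these elements in the changes was not tested.

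Mitotic kinesins were higher in the mutant rescue. Of the 14, 13 were tested and 12 rose (35.4% of all genes did), 0 fell (34.8% of all) and KIF11 was not called. Without the second mutant library 12 rose as well. Their median log2 fold change was 0.32, against 0.01 over all genes tested, and the called increases ran from 10.1% to 66.1%, with 8 of at least 1.2-fold. The mutant libraries lay above all wild-type libraries for the same number of tested mitotic kinesins, 12, where 36.8% of all tested genes did so. By contrast, of 17 transport kinesins 14 were tested, 4 rose, 3 fell and 7 were not called, with a median log2 fold change of 0.02. That is 28.6% higher and 21.4% lower, both below the shares of all tested genes (35.4% and 34.8%). Of 11 other kinesins 6 were tested, 3 rose (50%), 1 fell (16.7%) and 2 were not called. In all, 33 kinesins were tested and 23 of these (69.7%) were called, a share close to that of all genes. Within the family, 12 of the 19 increases were mitotic. Of the 4 decreases 3 were transport kinesins, although this class fell less often than all tested genes. The difference between classes was not tested. In bulk libraries a larger share of cells in G2 and mitosis and more transcript per such cell cannot be told apart.

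**Figure D1:**
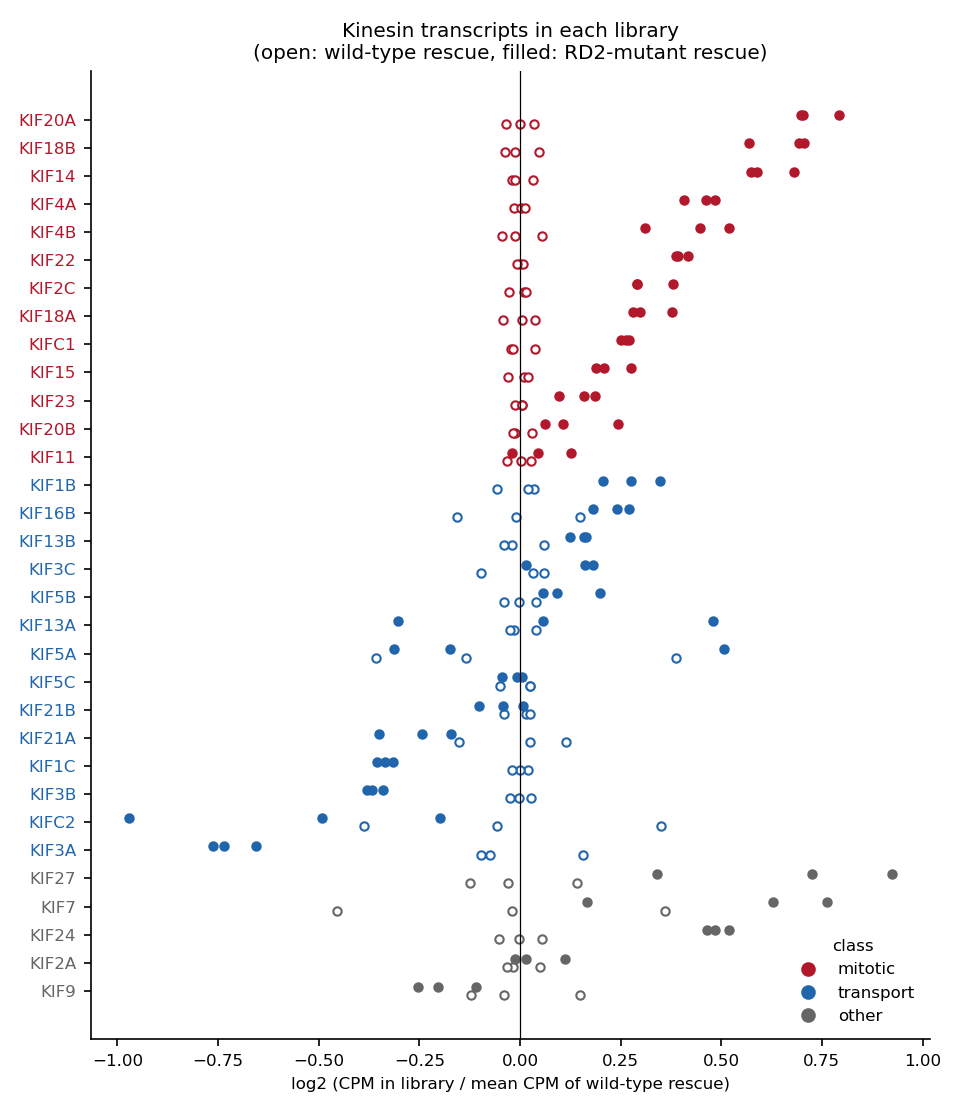
Level of each tested kinesin in each of the 6 libraries, as log2 of its CPM over the mean CPM of the wild-type rescue (x axis), with genes on the y axis coloured by class. Open points are wild-type and filled points mutant libraries; KIF26B, at a log2 fold change of -4.21, is left out. All 3 mutant libraries lie to the right of the wild-type libraries for 12 of 13 mitotic kinesins.

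The kinesins of late mitosis and cytokinesis held both large and small increases. KIF20A (MKLP2), which brings the chromosomal passenger complex to the central spindle, measured 143, 147 and 140.2 CPM in wild-type libraries and 234, 249 and 233 in mutant libraries. These values did not overlap, and the increase was 1.66-fold (log2 0.73, SE 0.035; edgeR, adjusted p = 1.13e-13). KIF14, which localizes citron kinase to the midbody, measured 128, 133 and 129 CPM against 196, 209 and 194, a 1.53-fold increase (log2 0.62, SE 0.036; edgeR, adjusted p = 2.58e-12). Again every mutant library was above every wild-type library. KIF23 (MKLP1), the motor of the centralspindlin complex, rose by much less, from 118 ± 0.849 to 131 ± 4.07 CPM (SD, n = 3 libraries each; log2 0.15, SE 0.035; edgeR, adjusted p = 7.48e-04). KIF20B, a motor needed to complete cytokinesis, rose 1.10-fold, from 87.2 ± 1.59 to 96.1 ± 6.37 CPM. Its call was lost once trends along GC content and length were removed (log2 0.03; edgeR, adjusted p = 0.409; over all alternatives 7.14e-05 to 1). Exons of KIF20A share 132 bases with the opposite-strand gene BRD8, itself higher by 0.52 on the log2 scale, and 68 bases with CDC23 (log2 0.02), or 4.12% and 2.12% of the transcript's length. Their part in the KIF20A counts was not tested.

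The 3 tested mitotic motors that set microtubule length, KIF18B, KIF18A and KIF2C, rose. KIF18B, a plus-end motor that controls astral microtubules, measured 68.2, 67.0 and 71.0 CPM in wild-type libraries and 112, 102 and 111 in mutant ones, with no overlap (1.58-fold; log2 0.66, SE 0.042; edgeR, adjusted p = 1.35e-11). KIF18A, which limits chromosome movement on the metaphase plate, rose 1.25-fold, from 110.1 ± 3.07 to 137 ± 4.91 CPM. KIF2C (MCAK), the centromeric depolymerase that corrects faulty attachments, also rose 1.25-fold, from 204 ± 3.21 to 255 ± 9.27 CPM. Its relative KIF2A, a depolymerase of spindle poles and of neurons counted here with the other kinesins, was not called (208 ± 6.43 against 214 ± 9.62 CPM; log2 0.04, SE 0.036; edgeR, adjusted p = 0.34), and its libraries overlapped. KIF2A shares 428 exon bases, 12.7% of its length, with the same-strand gene IPO11. IPO11 was at 84.2 CPM in the wild-type rescue and rose by 0.15 on the log2 scale. The part of IPO11 reads in the KIF2A counts was not tested. KIF2B, another depolymerase of this family, had 0 counts in all 6 libraries.

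The chromokinesins, which ride on chromosome arms, rose as well. KIF22 (Kid) measured 255, 256 and 254 CPM in wild-type libraries and 340.1, 333 and 334 in mutant libraries, a 1.32-fold increase (log2 0.40, SE 0.030; edgeR, adjusted p = 1.59e-10). The spread within each group was small beside the gap between them. KIF4A, which also shapes the anaphase midzone, measured 108, 109 and 109.6 CPM against 144, 152 and 149.7 (1.37-fold; log2 0.45, SE 0.034; edgeR, adjusted p = 1.98e-10). KIF4B, an intronless near-identical copy of KIF4A, followed it at log2 0.43. Its counts were 10.9% to 13.1% of those of KIF4A in every library, and since the treatment of multi-mapping reads is not given in the sources used here, reads of the pair cannot be assigned with certainty.

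Of the 3 motors that act on the spacing of spindle poles or centrosomes, KIF15 and KIFC1 rose and KIF11 was not called. KIF11 (Eg5), the main motor of pole separation and a drug target, measured 197, 205 and 202 CPM in wild-type libraries and 199, 220.1 and 208 in mutant ones. The groups overlapped and KIF11 was not called (log2 0.05, SE 0.037; edgeR, adjusted p = 0.209). Without the first mutant library it passed the test (log2 0.09; edgeR, adjusted p = 0.0457), as it did with plain library size scaling (log2 0.08; edgeR, adjusted p = 0.0365; over all alternatives up to 1). KIF15, which can stand in for KIF11, rose 1.17-fold, from 134 ± 2.41 to 157 ± 4.99 CPM, with no overlap. KIFC1 (HSET), the minus-end motor that clusters centrosomes, measured 242, 243 and 252 CPM against 295, 292 and 296 (19.8% higher; log2 0.26, SE 0.031; edgeR, adjusted p = 2.05e-07). Tested against a minimum change of 1.2-fold with glmTreat, 7 of the 12 mitotic increases passed, namely those of KIF2C, KIF4A, KIF4B, KIF14, KIF18B, KIF20A and KIF22.

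**Figure D2:**
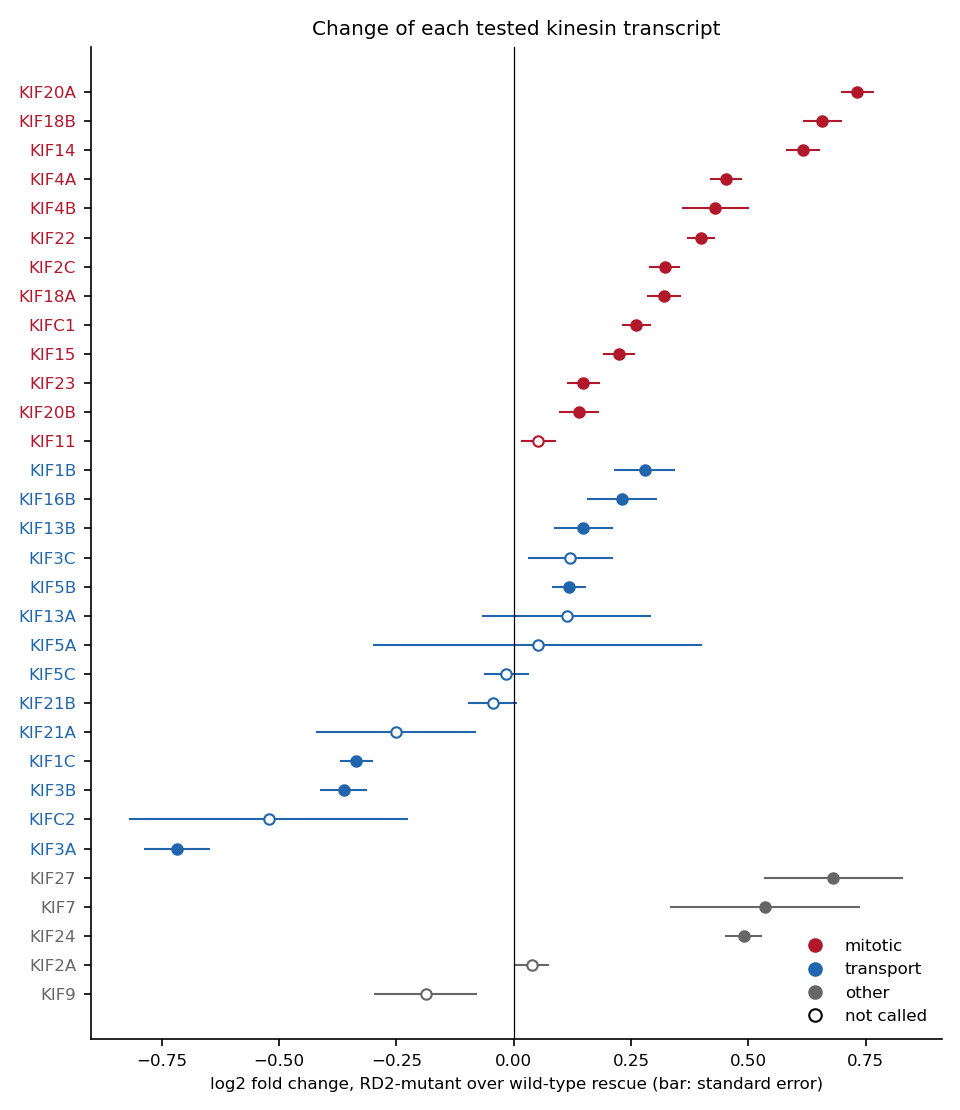
Log2 fold change of each tested kinesin, mutant over wild-type rescue (x axis), with its standard error as a bar and genes on the y axis coloured by class; filled points passed the test and KIF26B, at -4.21, is left out. Mitotic kinesins run from 0.05 (KIF11) to 0.73 (KIF20A), transport kinesins from -0.72 (KIF3A) to 0.28 (KIF1B).

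Among transport kinesins the decreases were larger than the increases. KIF3A and KIF3B form the motor pair of heterotrimeric kinesin-2, which serves cilia and vesicle transport. KIF3A measured 28.7, 24.4 and 24.0 CPM in wild-type libraries and 15.5, 15.2 and 16.3 in mutant libraries, a 1.64-fold decrease (log2 -0.72, SE 0.071; edgeR, adjusted p = 1.29e-08). KIF3B fell 1.29-fold, with means of 31.7 ± 0.591 and 24.7 ± 0.354 CPM (a log2 fold change of -0.36, SE 0.051; edgeR, adjusted p = 1.99e-06). Neither gene's groups overlapped, and the ratio of KIF3A to KIF3B in CPM was 0.771 to 0.887 in the wild-type and 0.617 to 0.670 in the mutant libraries. Their non-motor partner KIFAP3, named after its value was seen, was not called (22.3 ± 0.954 against 21.9 ± 1.06 CPM; log2 -0.03, SE 0.060; edgeR, adjusted p = 0.714), nor was KIF3C, an alternative partner of KIF3A (log2 0.12; edgeR, adjusted p = 0.243). KIF1C, a carrier of dense-core vesicles and integrins, measured 103, 102 and 100.4 CPM against 81.9, 79.6 and 80.6, a 1.26-fold decrease (log2 -0.34, SE 0.036; edgeR, adjusted p = 4.22e-08). The 3 decreases held their direction and call in all 17 alternatives tried.

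The 4 increases among transport kinesins were small, from 8.51% to 21.3%. KIF1B, a carrier of mitochondria and synaptic vesicle precursors, rose 1.21-fold, with means of 15.9 ± 0.548 and 19.3 ± 0.951 CPM (a log2 fold change of 0.28, SE 0.065; edgeR, adjusted p = 7.04e-04). KIF5B, the ubiquitous conventional kinesin heavy chain, measured 396, 419 and 407 CPM in wild-type libraries and 424, 467 and 434 in mutant ones (log2 0.12, SE 0.036; edgeR, adjusted p = 0.00636), and this call was lost once the same trends were removed (log2 0.03; edgeR, adjusted p = 0.309; over all alternatives 2.54e-06 to 1). KIF16B, a motor of early endosomes, rose by 0.23 on the log2 scale (edgeR, adjusted p = 0.0095), but not without the first wild-type library (log2 0.16; edgeR, adjusted p = 0.0854; over all alternatives 8.86e-04 to 0.684). KIF13B rose by 0.15 (edgeR, adjusted p = 0.0394), and of the 6 fits that leave out 1 library only the one without the first wild-type library kept this call (adjusted p 0.0354, otherwise 0.0561 to 0.115). KIF1B is thus the one transport increase among the 4 whose call did not depend on a single library or on the removal of these trends.

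The 7 tested transport kinesins that were not called were KIF3C, KIF5A, KIF5C, KIF13A, KIF21A, KIF21B and KIFC2. KIFC2, a minus-end-directed motor, differed widely between libraries of the same group, with 38.7, 23.2 and 29.2 CPM in wild-type libraries and 26.5, 15.5 and 21.6 in mutant ones. Its groups overlapped (log2 -0.52, SE 0.30; edgeR, adjusted p = 0.186). In both groups the first library was the highest and the second the lowest. KIFC2 was called lower only in fits with the replicate number as a block. The near neighbours KIF5C, a neuronal heavy chain (33.3 ± 0.977 against 32.9 ± 0.589 CPM; log2 -0.02, SE 0.049), and KIF21B (27.6 ± 0.650 against 26.7 ± 1.02 CPM; log2 -0.05, SE 0.053) had narrow errors around small differences. With GC and length offsets KIF21B was called lower (log2 -0.12; edgeR, adjusted p = 0.0406; over all alternatives 0.0194 to 1). KIF5A, KIF13A and KIF21A stayed at 3.02 CPM or below in every library. KIF17 (2 to 6 counts) and KIFC3 (1 to 5 counts) were too low to be tested, and KIF1A had 0 counts in all 6 libraries, which allows up to 0.115 CPM in a library.

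The kinesins outside both classes held the most divergent member. KIF26B, a kinesin-11 family protein linked to kidney development and noncanonical WNT signalling, had 161, 171 and 160 counts in wild-type libraries and 11, 9 and 6 in mutant libraries. Its mean fell from 6.10 ± 0.390 to 0.324 ± 0.0931 CPM, an 18.6-fold decrease (log2 -4.21, SE 0.19; edgeR, adjusted p = 5.76e-14). A gene that passes the filter on low counts through 1 group, as KIF26B did, can hardly fail to differ, and the size of the decrease rests on few counts in the mutant libraries. KIF24, a depolymerase that restrains cilium assembly at the centriole, measured 70.2, 73.1 and 67.8 CPM against 97.1, 100.8 and 98.5 (1.40-fold; log2 0.49, SE 0.039; edgeR, adjusted p = 4.40e-10), with no overlap. The Hedgehog pathway kinesin KIF7 and its close relative KIF27 were low: KIF27 rose 1.60-fold (75, 67 and 84 counts against 142, 95 and 123; edgeR, adjusted p = 3.89e-04). KIF7 had 44, 31 and 57 counts against 74, 49 and 67, and its groups overlapped. It passed the test (log2 0.53, SE 0.20; edgeR, adjusted p = 0.0243), but not without the first wild-type (adjusted p = 0.0751), the second wild-type (0.136), the first mutant (0.107) or the last mutant library (0.076), nor with DESeq2 (adjusted p = 0.0952; over all alternatives 0.00247 to 0.136). KIF9, a motor of motile cilia, was not called (5.59 ± 0.550 against 4.91 ± 0.251 CPM; log2 -0.19). Its exons share 178 bases, 5.3% of its length, with the opposite-strand gene KLHL18, which was at 88.9 CPM in the wild-type rescue and fell by 0.44 on the log2 scale; the part of KLHL18 reads in the KIF9 counts was not tested. KIF6, KIF12, KIF19, KIF25 and KIF26A had 0 counts in every library.

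Levels of different genes were compared per kilobase of the longest annotated transcript. On this scale mitotic kinesins took 8 of the 10 highest places in the wild-type rescue and 8 of 10 in the mutant rescue. The order in the wild-type rescue was KIF22 (101.7 ± 0.456 CPM per kilobase), KIFC1 (90.8 ± 2.07), KIF5B (69.3 ± 1.92), KIF2C (69.0 ± 1.09) and KIF2A (62.0 ± 1.91), followed by KIF20A (44.9 ± 1.07). KIF5B and KIF2C did not differ beyond their spread, nor did KIF23 (31.7 ± 0.228) and KIF18A (30.9 ± 0.860), whereas KIF22 and KIFC1 lay apart from each other and from the rest. The order depended on the length used: per kilobase of coding sequence KIF5B came first (140.9 CPM per kilobase), ahead of KIF22 (127.6) and KIFC1 (121.7), and mitotic kinesins again held 8 of the 10 highest places. In the mutant rescue KIF20A reached 74.5 ± 2.78 CPM per kilobase, above KIF2A (63.7 ± 2.86) and beside KIF5B (75.2 ± 3.89). KIF4B was the only detected mitotic kinesin with a wild-type level under 10 CPM per kilobase, and of the tested transport kinesins KIF5B and KIF1C exceeded that level. Per coding kilobase KIF3B (14.1), KIFC2 (12.1), KIF3A (11.8) and KIF5C (11.6) did so too.

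**Figure D3:**
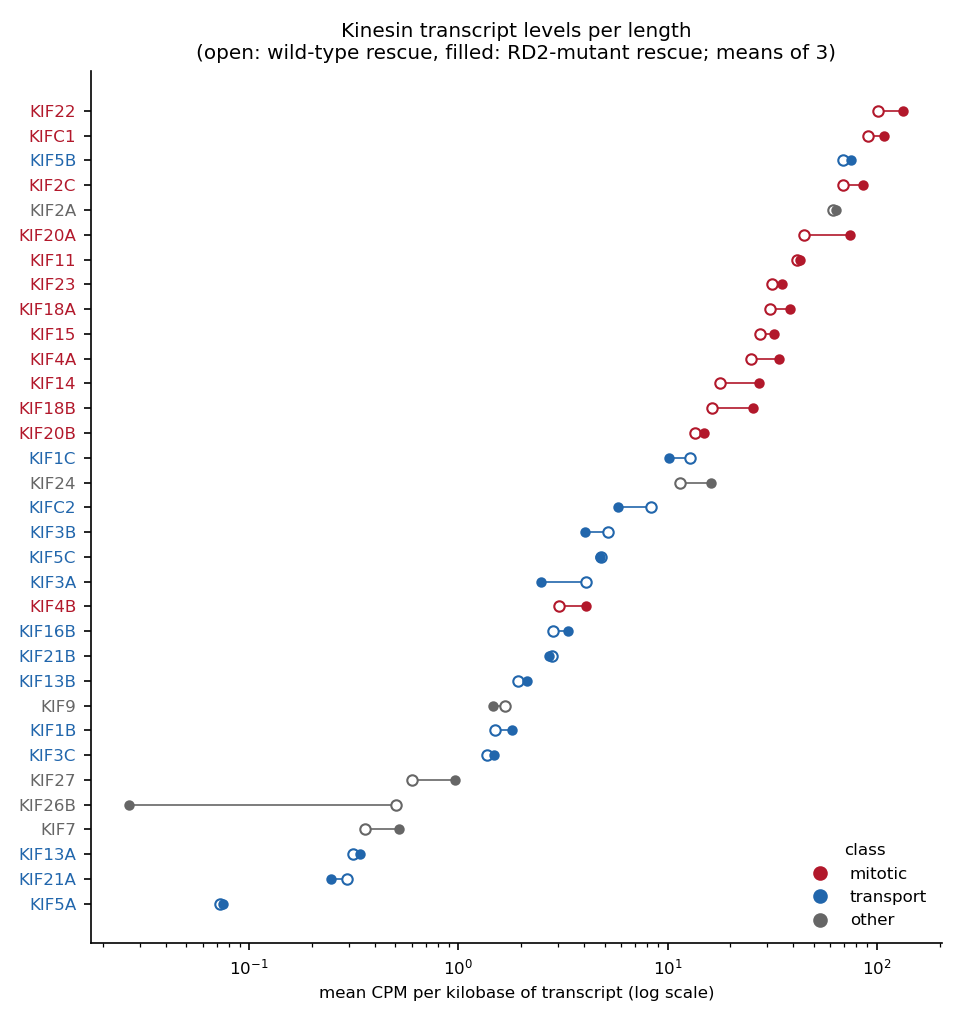
Mean level of each tested kinesin per kilobase of transcript (x axis, log scale) in the wild-type rescue (open points) and the mutant rescue (filled points), ordered by the wild-type level, n = 3 libraries each, genes coloured by class. Mitotic kinesins fill most of the upper places, from 101.7 for KIF22 downward, and KIF26B shows the widest gap between rescues.

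Summed over members, mitotic kinesins took 1797, 1832 and 1830 CPM in wild-type libraries and 2294, 2384 and 2306 in mutant libraries, a ratio of group means of 1.28. Transport kinesins took 717, 721 and 714 CPM against 699.7, 732 and 704, a ratio of 0.992, with overlapping groups. The mitotic sum was 2.50 to 2.56 times the transport sum in the wild-type and 3.26 to 3.28 times in the mutant libraries. One gene, KIF5B, made up 55.2% to 58.1% of the transport sum in the wild-type and 60.6% to 63.9% in the mutant libraries. Without it the transport sum averaged 310.3 ± 9.82 CPM over wild-type and 270.1 ± 5.71 over mutant libraries (SD, n = 3 each), a ratio of 0.870 with no overlap between groups. These sums describe the libraries and were not tested.

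Genes whose proteins work with mitotic kinesins showed a like distribution of changes. Of 27 listed partners 26 were tested, 21 rose, 2 fell and 3 were not called, with a median log2 fold change of 0.32. That is 80.8% higher and 7.69% lower, against 35.4% and 34.8% of all tested genes. AURKB, the kinase of the chromosomal passenger complex, rose from 107 ± 0.797 to 170.2 ± 2.40 CPM (log2 0.66), and PRC1, the crosslinker of the anaphase midzone that binds KIF4A, from 166 ± 3.33 to 247 ± 3.56 CPM (log2 0.57). The mitotic cyclin CCNB1 (log2 0.56) and the kinetochore subunit NUF2 (log2 0.58) rose as well. The 2 that fell, both named after their values were seen, were the plus-end protein MAPRE1 (log2 -0.33) and the checkpoint protein MAD2L1 (log2 -0.12). CENPE, the kinetochore kinesin whose symbol does not follow the KIF form, rose by 0.37, and RACGAP1, the centralspindlin partner of KIF23, by 0.21; both were named after their values were seen. Of 20 S phase genes, by contrast, 2 rose, 13 fell (65%, against 34.8% of all tested genes) and 5 were not called (median log2 fold change -0.18). Among those that fell were the replicative helicase genes MCM4 (log2 -0.72), MCM5 (-0.60) and MCM6 (-0.74) and the licensing factor CDC6 (-0.62). The 2 that rose were TYMS (log2 0.56) and RRM2 (log2 0.34), both named after their values were seen. MKI67, a marker of cycling cells, was not called (1114 ± 2.75 against 1058 ± 119 CPM; log2 -0.07, SE 0.083; edgeR, adjusted p = 0.469). The part of cell cycle phase in the kinesin changes was not tested.

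Light chains and cargo adaptors of transport kinesins, like the motors, moved in both directions. Of 22 listed, 21 were tested, 5 rose, 7 fell and 9 were not called (median log2 fold change -0.05). That is 23.8% higher and 33.3% lower, against 35.4% and 34.8% of all tested genes. KLC1, a light chain that links conventional kinesin to cargo, fell from 283 ± 1.45 to 235 ± 2.10 CPM (log2 -0.27), and TRAK1, a mitochondrial adaptor, rose from 170.3 ± 3.42 to 211 ± 2.45 CPM (log2 0.31). The widest changes were at low levels: GRIP1, an adaptor for glutamate receptor cargo, rose from 1.06 ± 0.0711 to 8.12 ± 0.237 CPM (log2 2.93), and SYBU, a syntaxin adaptor of KIF5B, fell from 2.44 ± 0.218 to 0.611 ± 0.187 CPM (log2 -1.99).

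**Figure D4:**
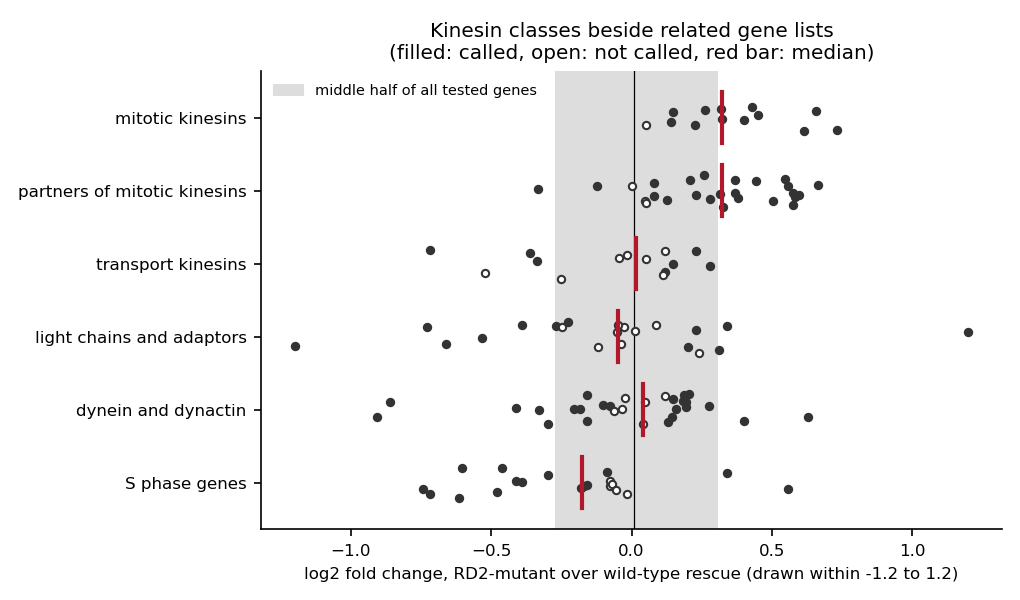
Log2 fold change of every tested gene, mutant over wild-type rescue (x axis), in 6 lists (y axis), with called genes filled, uncalled genes open and each median as a red bar; the grey band is the interquartile range of all tested genes, -0.27 to 0.31. GRIP1 (2.93) and SYBU (-1.99) are drawn at the edge of the range shown. Mitotic kinesins and their partners share a median of 0.32, while transport kinesins and the adaptors lie near 0.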

How the data were processed

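Each of the 6 OCI-LY1 libraries has 1 column of whole-number read counts per gene symbol, deposited by the authors without normalization. The submitters' processing notes name CASAVA 1.8.2, STAR, edgeR and build hg19. How reads were assigned to genes, by strand and where they map repeatedly, is not given in the sources used. Per the labels' protocols RNA was isolated with Trizol and sequenced from TruSeq libraries.

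In R 4.3.3, edgeR 4.0.16 was run on the whole table: filterByExpr kept 12406 of 23250 genes, TMM scaled the libraries, and a robust quasi-likelihood fit compared the rescues, with Benjamini-Hochberg adjustment and a threshold of 0.05. Standard errors are the log2 fold change over the root of the F statistic. No permutation test was run, since 3 against 3 allows no p under 0.1. The fit was tested on simulated data. Transcript length and GC content are those of the longest GENCODE v29 model, found by symbol for 87.9% of tested genes. Promoters are from RefSeq on GRCh38.p14, listed for 34 of 42 kinesin genes. Members, classes and lists were chosen with earlier results of these data known. Named genes were kinesins called with a log2 change of at least 0.5, all tested mitotic kinesins, and other kinesins mainly in order of change. Up to 4 genes of each related list by p, BCL6 and MKI67 were named too. Transport and other kinesins, and genes of the related lists, named beyond these were chosen after their values were seen.

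Alternatives comprised 3 other scalings (RLE, upper quartile, library size), DESeq2 1.42.0, limma-voom (limma 3.58.1), no filter, a minimum of 1 CPM in all libraries, glmTreat against 1.2-fold, a replicate block, offsets for GC and length (mgcv 1.9.3) with and without that block, and each library left out. After the data were seen, the transport sum without KIF5B and the related lists without the second mutant library were added.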

Additional observations from a re-analysis of the deposited data

How the results depend on the processing

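Of 559 values of single kinesins under 17 alternatives, 511 kept direction and side of the threshold, 29 lost their call, 6 gained one and 13 changed sign, none of the last in a called gene. With glmTreat against 1.2-fold, 9 kinesins were called higher in place of 19, 7 mitotic in place of 12 and 0 transport in place of 4, as a stricter null requires, and 4585 of all genes in place of 8702. With GC and length offsets 2 transport kinesins were higher, with or without the replicate block. Their median log2 fold change was -0.051 without and -0.049 with the block, and with it 5 were lower in place of 3. Over all tested genes the offsets without the block moved the median from 0.010 to -0.034. Calls over all genes went from 4386 higher and 4316 lower to 4015 and 4999. The cause of the transport values was not tested. A minimum of 1 CPM in all libraries removed KIF26B and KIF5A, so 0 other kinesins were called lower and their median was 0.51. Leaving out 1 library gave a transport median of -0.046 to 0.051, 12 to 13 mitotic and 17 to 18 kinesins in all called higher, and a mitotic median of 0.29 to 0.34. Without the second mutant library, 12 mitotic kinesins and 21 of their partners were higher. The transport ratio without KIF5B was 0.870 in place of 0.992.

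Sign changes among uncalled genes were those of KIF11 (-0.018 with GC and length offsets and -0.019 with the block too), KIF2A (-0.0024 and -0.0026 likewise), KIF5A (-0.013 and -0.0094 likewise, and -0.10, -0.0042 and -0.24 without the first wild-type, second wild-type or first mutant library, in a range of -0.24 to 0.30 over the libraries left out), KIF13A (-0.11 without the second mutant library, in a range of -0.11 to 0.28) and KIF5C (0.0096 with library size scaling, 0.00028 with the 1 CPM minimum and 0.0015 without the second wild-type library, in a range from -0.041).

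Replicate numbers are shared by the groups, but nothing says that they pair libraries. Deviations of same-numbered libraries from their group means correlated at 0.14, 0.17 and -0.05. For libraries of different number the correlations ran from -0.18 to 0.07, and whether the numbers pair libraries was not settled. With the replicate number as a block 9285 genes were called in place of 8702, and among kinesins only KIFC2 gained a call (log2 -0.52; edgeR, adjusted p = 3.65e-19; over all alternatives 1.84e-25 to 0.411). KIF17 and KIFC3, with 1 to 6 counts per library, were too low to be tested, and for KIF5A, with 9 to 16 counts, the SE of 0.35 limits the test to larger differences.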

Other observations

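Cytoplasmic dynein, the motor that walks towards microtubule minus ends against most kinesins, showed no common direction. Of 32 listed genes for dynein, its dynactin cofactor and their regulators, 29 were tested. Of these, 12 rose (41.4%, against 35.4% of all tested genes), 11 fell (37.9%, against 34.8%) and 6 were not called. These shares are near those of all genes, and the median log2 fold change was 0.04. The heavy chain gene DYNC1H1 rose 1.14-fold, from 528 ± 37.7 to 604 ± 17.1 CPM (SD, n = 3 libraries each), and was named after its value was seen. NDE1, which ties dynein to kinetochores and centrosomes in mitosis, rose from 74.9 ± 1.95 to 115.9 ± 0.856 CPM (log2 0.63), and the light chain gene DYNLT1 rose as well (log2 0.40). DYNC1I1, an intermediate chain best known from neurons, fell from 11.5 ± 0.117 to 6.12 ± 0.488 CPM (log2 -0.91), and the light chain gene DYNLL2 fell by 0.41 on the log2 scale.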
